A study of Homo sapiens with 16 samples.

Results

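Adding the BRAF inhibitor Vemurafenib to the BET inhibitor JQ1 was examined in 8 of the 16 A375 tumors of this xenograft study: 4 tumors of mice given both drugs (J+V) against 4 tumors of mice given JQ1 alone (J). The genes described are those with at least 1 FPKM (fragments per kilobase of transcript scaled to the mapped fragments of the library) in at least 4 of these 8 tumors, which kept 12978 of the 23260 gene symbols. A375 is a human melanoma cell line with a BRAF mutation. In every group A375 cells grew on both flanks of NOG mice (NOD/Scid/IL2γR-/-), which lack most lymphoid cells, and tumors were removed on day 5 of treatment. J mice received JQ1 at 50 mg/kg daily and no Vemurafenib. J+V mice received the same JQ1 together with Vemurafenib at 25 mg/kg per dose, 2 doses a day. The other 8 tumors came from vehicle-treated mice (control) and from mice given Vemurafenib alone (V), and they show the same drug step without JQ1. Each group held 2 mice with 2 tumors each, so the 8 tumors compared came from 4 mice. How long before removal the last dose was given is not stated in the sources used here.

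BRAF with an activating mutation drives the kinases MEK and ERK, and ERK in turn induces transcription factors, cyclin D1 and feedback inhibitors such as the dual-specificity phosphatases and Sprouty proteins. Vemurafenib blocks the mutant BRAF kinase, so these genes are commonly read as its target response. BET proteins bind acetylated histones and help the elongation factor P-TEFb release paused RNA polymerase, and JQ1 displaces them from chromatin. Melanoma cells can move between a dedifferentiated, invasive state marked by AXL and EGFR and states nearer to melanocytes or to their neural crest precursors.

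The melanocyte lineage was only partly visible in its markers. SOX10, MITF, PAX3, MLANA, S100B, MCAM and TFAP2A were above 1 FPKM in every J and J+V tumor, PMEL, TYR and TYRP1 stayed at or below 0.562 FPKM, and DCT was listed at 0 in all 8. Fibroblast markers summed to between 73.9 and 92.2 FPKM in the J tumors and between 80.2 and 134 FPKM in the J+V tumors, and 0 of the 8 measured fibroblast genes and 0 of the 3 measured macrophage genes passed the test in either direction. No endothelial or lymphocyte marker reached the FPKM minimum. Host cells of these xenografts are mouse cells, whereas the values are for human genes mapped to hg19. These marker values therefore do not measure the host cells of the tumors. Among markers of keratinocytes, adipocytes, skeletal muscle and red cells, KRT10 was lower (-0.39 on the log2 scale) and LPL higher (0.67) in the J+V tumors. Each was the only measured gene of its list, of 7 keratinocyte and 5 adipocyte markers. LPL, at a median of 1.13 FPKM, was not called with the mean of each mouse or without mouse 26, 29 or 33. KRT10 was not called without mouse 29 or 33. The upper quartile of FPKM was lower in the J+V than in the J tumors (25.02 ± 0.545 against 26.4 ± 0.274, SD, n = 4 each, exact two-sided permutation p = 0.0286, the smallest that 4 against 4 tumors allow). The FPKM sum (p = 0.257) and the percentage of it in small nucleolar RNAs (51.5% ± 3.17 against 49.5% ± 1.61, p = 0.314) did not pass the same exact permutation test. In bulk tumor RNA, fewer cells of a type and less RNA per cell cannot be told apart. Correlations between tumors of the same mouse (median r = 0.957) and of different mice of a group (0.956) were close, and p-values measure the spread between tumors of 2 mice per group.

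On the deposited scale more genes were lower than higher when Vemurafenib was added to JQ1, a balance that turned after quantile normalization. By limma on log2(FPKM + 0.5), with tumors of a mouse as a block and Benjamini-Hochberg adjustment over all 12978 genes, 2437 genes (18.8%) were lower and 1166 (8.98%) were higher in J+V than in J tumors at an adjusted p below 0.05. The median difference was -0.504 among the lower genes and 0.472 among the higher genes on this log2 scale, which understates the change of genes with low FPKM, and the median over all genes was -0.052. The estimated correlation within a mouse was negative (-0.0691), and without the block fewer genes were called, 2221 lower and 1014 higher. The correlation was not stable: without control replicate 3 it was 0.1895, with 1546 genes lower and 613 higher. With the mean of each mouse as the unit, 1623 genes (12.5%) were lower and 732 (5.64%) higher, and 2257 genes were called in both fits. All J+V tumors lay below all J tumors in 2917 genes (22.5%) and above them in 1720 (13.3%), called or not. At the thresholds of the study (a fold above 2, p below 0.01 and adjusted p below 0.1), applied to the same limma fit, 296 genes (2.28%) were lower and 57 (0.439%) higher. The balance of directions depended on scaling: 67.6% of the calls were lower as deposited, 84.3% after scaling to a common FPKM sum, 51.2% after upper quartile scaling and 48.2% after quantile normalization. Without mouse 33 the counts were 1106 lower and 362 higher, without mouse 29 they were 879 and 304, and without mouse 26 they were 1204 and 395.

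The ERK target genes responded unevenly: FOSL1, ETV4, cyclin D1 and the receptor EPHA2 were lower, whereas ETV5, DUSP6 and the Sprouty genes SPRY2 and SPRY4 were not called. Of 19 measured genes of ERK pathway output, 7 (36.8%) were lower and 0 higher, beside 18.8% and 8.98% over all genes, with a median of -0.185. FOSL1, which encodes the AP-1 subunit FRA-1, measured 37.3, 40.7, 47 and 38.2 FPKM in the J tumors (left and right flank of mouse 26, then of mouse 29) and 8.01, 7.21, 19.4 and 13.1 FPKM in the J+V tumors (mouse 33, then mouse 34). All J+V tumors lay below all J tumors, and the tumors of mouse 33 were the lowest (log2 difference -1.83 ± 0.279 SE, adjusted p = 0.000492). Such a full separation downward was found in 22.5% of all genes. The ephrin receptor EPHA2 (chr1:16450832-16482564, minus strand, GRCh37) fell from 9.43, 14, 13.1 and 11.8 FPKM to 1.96, 1.43, 5.05 and 3.12 FPKM, a 4.18-fold ratio of group means. CCND1, the cyclin D1 gene that carries ERK signalling into G1 (chr11:69455924-69469242, plus strand), fell from 74.2 ± 2.76 to 36.2 ± 9.18 FPKM (SD, n = 4 each, log2 difference -1.06, adjusted p = 0.000134). The Ets factor ETV4 fell 1.51-fold, and its J+V values of 10.3 to 12.9 FPKM lay below the J values of 15.4 to 20.1 FPKM. DUSP4, a nuclear ERK phosphatase, fell from 56.9 to 40.3 FPKM (adjusted p = 0.00727, and 0.0601 with the mean of each mouse). MAFF and IER3 completed the lower genes, with falls of 0.73 and 0.42 on the log2 scale.

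Other genes of the list did not pass the test. DUSP6, the cytoplasmic ERK phosphatase, measured 137, 114, 111 and 121 FPKM in J tumors and 95.8, 100, 110 and 145 FPKM in J+V tumors, so the groups overlapped (log2 difference -0.11, 95% interval -0.37 to 0.15). SPRY4, a Sprouty inhibitor of the pathway, was at 30.6 ± 3.09 and 34.4 ± 4.03 FPKM (interval -0.14 to 0.47), and its relative SPRY2 at 37.7 and 44.8 FPKM (interval -0.30 to 0.72). The Ets factor ETV5 was at 16.5 and 16.9 FPKM, with an interval of -0.21 to 0.27. PHLDA1, an ERK-induced gene, was at 147 ± 32.9 and 93.4 ± 35.7 FPKM (adjusted p = 0.1). The intervals of DUSP6 and ETV5 are the narrower ones here, and those of PHLDA1 (-1.34 to -0.048) and SPRY2 leave room for changes as large as some that were called.

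Of 15 measured immediate early genes, 4 (26.7%) were lower and 1 (6.67%) higher, shares near those over all genes (18.8% and 8.98%). The AP-1 genes JUN and JUND, the early response gene IER2 and KLF10 fell by 0.81, 0.64, 0.83 and 0.56 on the log2 scale, with JUN at 9.62 to 11.1 FPKM in the J tumors and 4.65 to 7.79 FPKM in the J+V tumors. FOS rose from 2.24 to 3.13 FPKM (log2 difference 0.43, adjusted p = 0.0393), but it was not called without control replicate 3 or without any 1 of mice 26, 29, 33 and 34. EGR1, a direct target of ERK signalling, was at 10.6 ± 2.61 and 10.3 ± 2.93 FPKM. MYC was at 5.11 ± 0.439 and 5.16 ± 0.162 FPKM, and its interval ran from -0.32 to 0.35.

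**Figure D1:**
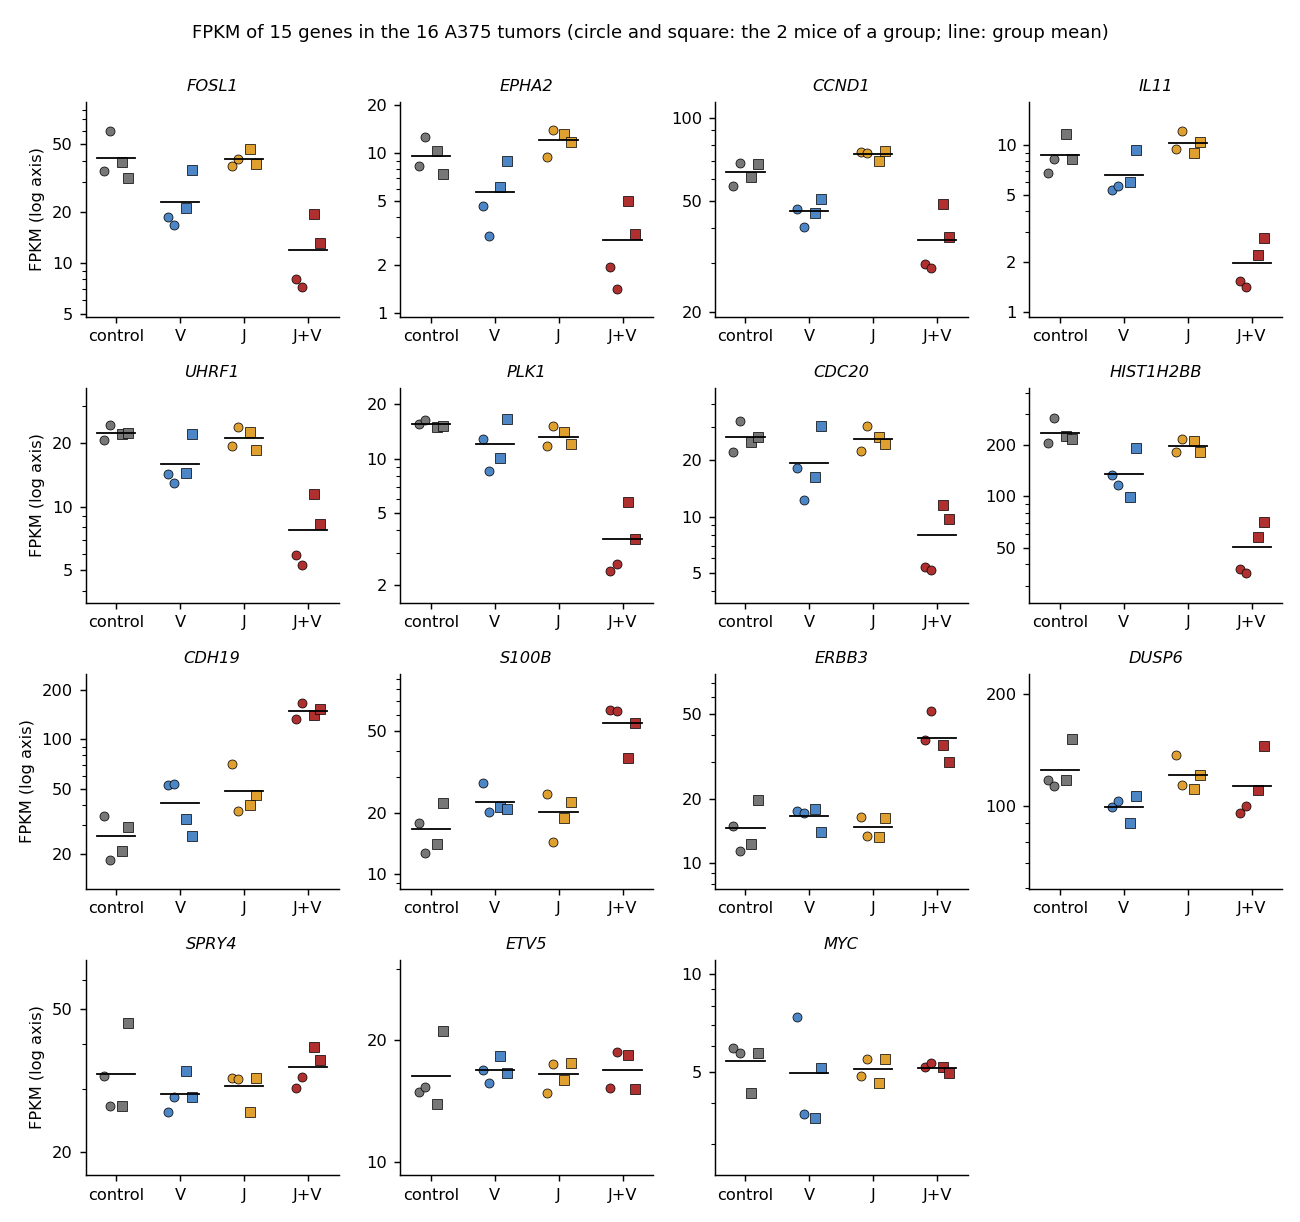
FPKM of 15 genes on log axes in the control, V, J and J+V tumors; each point is 1 tumor, circles and squares are the 2 mice of a group and the line is the group mean. The 4 J+V tumors lie below the 4 J tumors for FOSL1, EPHA2, CCND1, IL11, UHRF1, PLK1, CDC20 and HIST1H2BB, above them for CDH19, S100B and ERBB3, and overlap them for DUSP6, SPRY4, ETV5 and MYC. Over all genes 22.5% lie fully below and 13.3% fully above.

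Proliferation genes had the lowest medians of the lists. Of 45 measured genes of G1/S, the entry into DNA replication, 42 (93.3%) were lower and 0 higher in J+V tumors, with a median of -0.905. Of 59 genes of G2/M, the mitotic program, 51 (86.4%) were lower and 0 higher, with a median of -1.037. Of 59 measured replication-dependent histone genes (73 listed), whose transcription belongs to S phase, 51 (86.4%) fell and 0 rose, with a median of -1.458. Over all genes 18.8% were lower and the median was -0.052. With the mean of each mouse the counts were 40, 46 and 52, and without mouse 33 they were 29, 38 and 51.

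Promoter stretches are shown for members of each list to set their letters beside the values, with 1 short element marked for each list. The elements are not separate between the lists: the histone promoters also held the other 2 in a larger share than all promoters. E2F sites (TTTCCCGC, TTTGGCGC, TTTGCCGC or TTTCGCGC, either strand) were found between 250 bases before and 50 bases after the RefSeq start in 17 of 35 matched G1/S genes (48.6%), in 3 of 49 matched G2/M genes (6.12%), in 14 of 48 matched histone genes (29.2%) and in 3.33% of all 27305 promoters. The cell cycle homology region (TTTGAA, either strand) was found in 32 of 49 G2/M genes (65.3%), in 2 of 35 G1/S genes (5.71%), in 20 of 48 histone genes (41.7%) and in 15.4% of all promoters. The octamer ATTTGCAT, on either strand, was found in 19 of 48 histone genes (39.6%), in 0 of the matched G1/S and G2/M genes and in 1.8% of all promoters. CCAAT boxes, on either strand, were found in 68.6% of G1/S, 71.4% of G2/M and 87.5% of histone promoters and in 35.7% of all promoters. They were frequent in other lists too, such as 77.3% of sterol and fatty acid synthesis promoters. Among matched genes of those kept, 5.58% held E2F sites, 10.3% the homology region, 1.38% the octamer and 37.6% a CCAAT box. The stretches are RefSeq promoter sequence (GRCh38.p14) that matched GRCh37 once and exactly, and none touches an exon of the annotation used here. They run 5′ to 3′ on the strand of the gene, with the element of the list and any CCAAT box in capitals.
GINS2: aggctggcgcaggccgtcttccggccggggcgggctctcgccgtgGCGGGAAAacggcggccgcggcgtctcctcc
PCNA: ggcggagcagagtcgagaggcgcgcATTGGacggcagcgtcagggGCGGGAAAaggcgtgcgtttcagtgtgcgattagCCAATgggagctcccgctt
CDC20: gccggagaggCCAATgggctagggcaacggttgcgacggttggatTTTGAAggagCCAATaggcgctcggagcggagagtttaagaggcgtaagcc
HJURP: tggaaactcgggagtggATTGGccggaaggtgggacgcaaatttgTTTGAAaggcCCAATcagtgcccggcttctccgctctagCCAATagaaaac
HIST1H2BB: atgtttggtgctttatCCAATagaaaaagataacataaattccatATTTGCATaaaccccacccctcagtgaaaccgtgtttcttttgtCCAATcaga
HIST1H2BM: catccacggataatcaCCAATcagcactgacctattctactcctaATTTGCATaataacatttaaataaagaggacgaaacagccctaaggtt

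The GINS2 stretch (chr16:85722561-85722636, minus strand, GRCh37) lies inside the annotated span of GINS2 but in no exon, with the E2F match 31 bases before the RefSeq start. The PCNA stretch (chr20:5107275-5107372, minus strand) touches no annotated gene and has the match 59 bases before the start. The homology regions are 65 bases before the start in CDC20 (chr1:43824542-43824637, plus strand) and 111 bases before it in HJURP (chr2:234763242-234763337, minus strand). The octamers are 120 bases before the start of HIST1H2BB (chr6:26044009-26044106, minus strand) and 48 bases before that of HIST1H2BM (chr6:27782707-27782799, plus strand), and these 4 stretches also touch no annotated gene. A match describes the letters and does not show that a factor was bound.

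The genes behind these sequences were lower in every J+V tumor than in any J tumor, which for the 2 histone genes the naming rule required. PCNA, the sliding clamp of DNA polymerase, measured 128, 135, 132 and 114 FPKM in J tumors and 53.9, 39.2, 76.5 and 64.7 FPKM in J+V tumors (log2 difference -1.15 ± 0.175 SE, adjusted p = 0.000492). GINS2, a subunit of the replicative helicase, fell from 15.4 ± 1.49 to 6.29 ± 2.18 FPKM. UHRF1, which maintains DNA methylation at replication forks, fell from 19.4, 23.8, 22.6 and 18.6 FPKM to 5.91, 5.28, 11.5 and 8.24 FPKM. RRM2, the regulated subunit of ribonucleotide reductase, fell from 72.1 ± 5.36 to 28.1 ± 9.36 FPKM (2.56-fold, adjusted p = 0.000151). CDC6, the replication licensing factor, had the largest G1/S difference, -1.90 ± 0.481 SE, at 14, 11.3, 10.2 and 6.48 FPKM against 3.8, 1.01, 3.78 and 1.88 FPKM. CDC6 was not called without mouse 26 or without mouse 33. The groups of these 5 genes did not overlap, and for each of them except CDC6 the tumors of mouse 33 were the lowest. Over all genes 22.5% were fully separated in this direction.

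Among mitotic genes, PLK1, the polo-like kinase of mitotic entry (chr16:23688977-23701688, plus strand), fell from 11.7, 15.1, 14 and 12.1 FPKM to 2.38, 2.61, 5.77 and 3.57 FPKM, a 3.7-fold ratio of means (log2 difference -1.81 ± 0.21 SE, adjusted p = 0.000115). CDC20, the activator of the anaphase-promoting complex, fell from 22.5, 30.3, 26.7 and 24.4 FPKM to 5.4, 5.2, 11.5 and 9.65 FPKM. UBE2C, the ubiquitin-conjugating enzyme of that complex, fell from 91.7 ± 11.3 to 29.2 ± 9.62 FPKM. HJURP, the chaperone that loads centromeric histone, measured 11 to 12.5 FPKM in J tumors and 2.25 to 5.68 FPKM in J+V tumors. BIRC5, which encodes the mitotic and anti-apoptotic protein survivin, fell from 22.7 ± 2.3 to 7.67 ± 2.2 FPKM. MKI67, the gene of the Ki-67 antigen, fell by 0.83 on the log2 scale (adjusted p = 0.00659, and 0.0574 with the mean of each mouse), and the groups overlapped at 20.3 to 27.8 FPKM in J and 9.52 to 21.5 FPKM in J+V tumors. The 8 G2/M genes that were not called, CBX5, CENPE, KIF20B, SMC4, CKAP2, GAS2L3, CTCF and G2E3, had differences between -1.02 and -0.008.

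HIST1H2BB, a histone H2B gene, measured 182, 217, 209 and 180 FPKM in J tumors and 37.4, 35.7, 57.6 and 70.8 FPKM in J+V tumors, a 3.91-fold ratio of means (adjusted p = 8.99e-05). HIST1H2BM fell from 114 ± 17.7 to 29.8 ± 9.64 FPKM and HIST1H3A, a histone H3 gene, from 38.5 ± 8.94 to 10.03 ± 3.1 FPKM. The groups of these 3 genes did not overlap, which the rule that named them for size required. Histone genes of one type are near-identical in sequence and how fragments were shared among copies is not stated, so values of single histone genes are uncertain. Libraries were made from total RNA depleted of ribosomal RNA, which keeps transcripts without a poly(A) tail, as most of these are.

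Of 11 measured D-type cyclins, partner kinases, retinoblastoma relatives and CDK inhibitors, 5 (45.5%) were lower and 2 (18.2%) higher, beside 18.8% and 8.98% over all genes. Besides CCND1, CDK4 fell by 0.32 on the log2 scale, the retinoblastoma relative RBL1 by 0.78, and the inhibitors CDKN2D and CDKN1A (p21) by 0.95 and 0.90. CDKN1A measured 7.65, 8.96, 11.7 and 12.4 FPKM in J tumors and 3.84, 4.93, 6.01 and 6.02 FPKM in J+V tumors. RB1 and RBL2 rose by 0.27 and 0.30. The count of higher genes was 0 after scaling to a common sum, 0 without mouse 26 and 1 with the mean of each mouse. CDKN1B (p27) was at 18.1 ± 0.647 and 17 ± 1.44 FPKM, with an interval of -0.26 to 0.074.

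**Figure D2:**
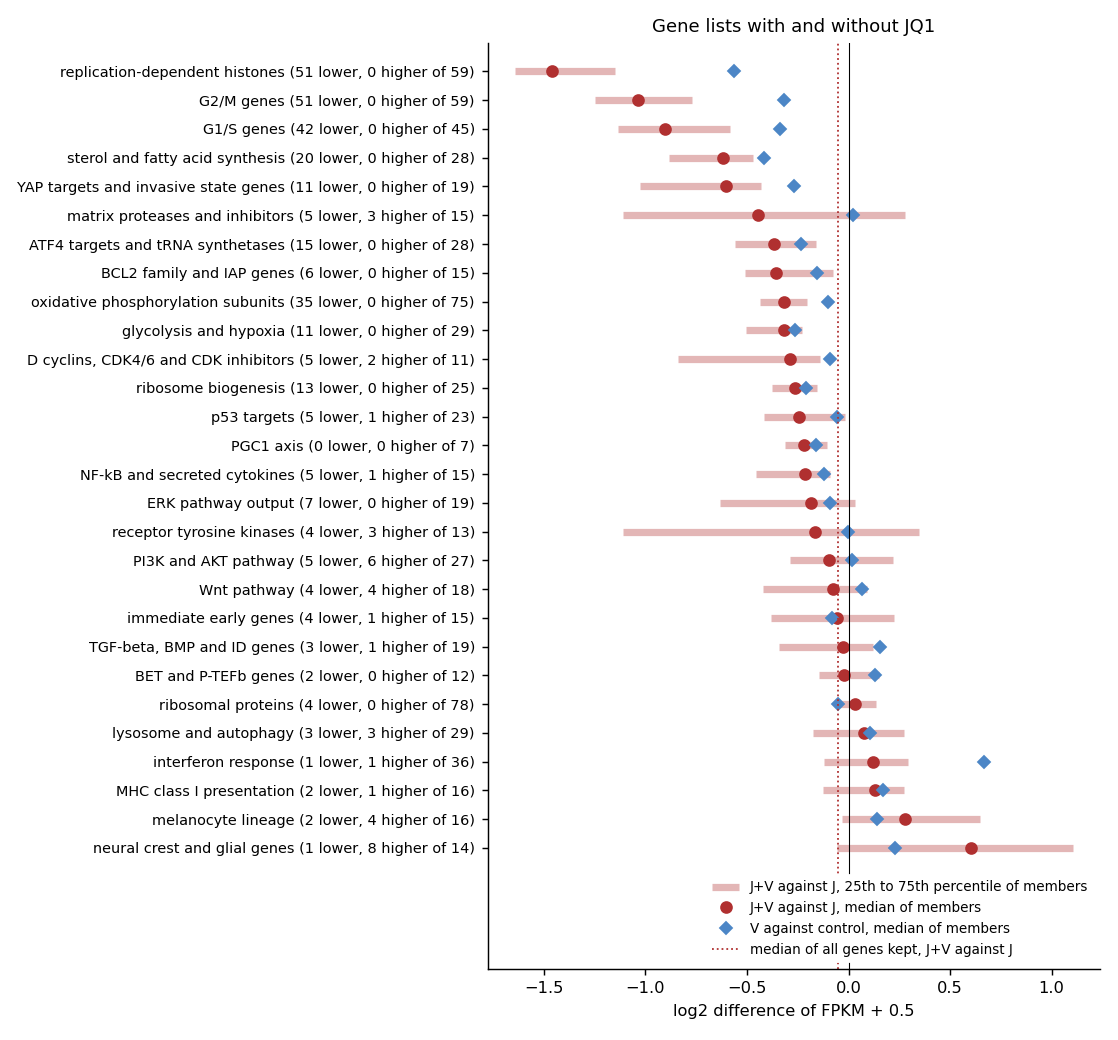
Median log2 difference (horizontal axis, FPKM + 0.5) of 28 gene lists, with bars from the 25th to the 75th percentile of members for J+V against J and diamonds for the median of V against control; the dotted line is the median of all genes. Histone, G2/M and G1/S genes lie farthest below the line at -1.458, -1.037 and -0.905, and neural crest and glial genes farthest above it at 0.605.

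More genes of the neural crest and of Schwann cell precursors were higher than lower with Vemurafenib on JQ1. Of 14 measured genes of this list (18 listed), 8 (57.1%) were higher and 1 was lower, with a median of 0.605, beside 8.98% higher over all genes. The other 6 members, called or not, all had differences below 0. With the mean of each mouse 8 were higher and 0 lower, and 4 were higher without mouse 29. CDH19, a cadherin of Schwann cell precursors, measured 70.7, 36.4, 39.5 and 45.6 FPKM in J tumors and 132, 167, 140 and 153 FPKM in J+V tumors (log2 difference 1.66 ± 0.244 SE, adjusted p = 0.00042). The groups did not overlap, as its naming for size required. RXRG, a retinoid receptor, rose from 1.08 ± 0.426 to 3.02 ± 0.746 FPKM, and ID4, A2M, FOXD3, TFAP2B and SNAI2 rose by 1.08, 1.11, 0.87, 0.65 and 0.56 on the log2 scale. NGFR, the nerve growth factor receptor often used to mark neural crest-like melanoma cells, fell from 2.43 to 1.11 FPKM (adjusted p = 0.0479). SOX2, also on the list, had a difference of -0.063 and was not called.

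Of 16 measured melanocyte lineage genes (27 listed), 4 (25%) were higher and 2 (12.5%) lower, beside 8.98% and 18.8% over all genes. S100B, a calcium-binding protein gene (chr21:48018517-48025121, minus strand), rose from 24.7, 14.3, 18.9 and 22.4 FPKM to 63.7, 62.5, 37.1 and 55.1 FPKM (2.72-fold, adjusted p = 0.000274). ERBB3, the neuregulin receptor (chr12:56470583-56497289, plus strand), rose from 16.5, 13.4, 13.3 and 16.3 FPKM to 38.1, 51.7, 35.9 and 30 FPKM (2.62-fold, adjusted p = 0.000134). The lowest J+V tumor lay above the highest J tumor for both, again a condition of their naming. EDNRB, the endothelin receptor of melanoblasts, rose from 12.3 ± 2.24 to 24.1 ± 2.12 FPKM and GPM6B by 0.64 on the log2 scale. CDK2, a cell cycle kinase on this list, and MCAM fell by 0.86 and 0.48. MITF itself was at 9.3 ± 0.7 and 9.85 ± 1.99 FPKM (interval -0.24 to 0.36), and SOX10 at 12.5 ± 1.35 and 15.9 ± 3.58 FPKM (adjusted p = 0.177).

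Genes of the invasive state and of YAP signalling were lower in 11 of 19 measured members (57.9%, beside 18.8% of all genes) and higher in 0, with a median of -0.603. AXL, a receptor kinase of the invasive state, fell from 26.2, 26.4, 17.9 and 13.6 FPKM to 5.1, 4.98, 10.2 and 5.85 FPKM (adjusted p = 0.00702). SOX9, a neural crest transcription factor, fell from 13.7 ± 2.96 to 4.35 ± 1.97 FPKM. EGFR fell from 5.45 to 2.23 FPKM, and tumor 34L at 4.12 FPKM overlapped the J tumors (4.08 to 7.06 FPKM). AMOTL2, CYR61 and NT5E fell by 1.07, 0.98 and 0.92 on the log2 scale. The matrix genes FN1, TNC and TGFBI had differences of -0.13, 0.036 and -0.23 and were not called. The count leaned on single mice: without mouse 33 it was 2, without mouse 29 it was 4 and without mouse 26 it was 6, at medians of -0.497, -0.664 and -0.613.

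Of 13 measured receptor tyrosine kinases 4 (30.8%) were lower and 3 (23.1%) higher, beside 18.8% and 8.98% over all genes. The counts were 1 and 2 without mouse 33, and 2 and 2 without mouse 26. EPHA2, AXL, EGFR and MET were lower, MET by 1.11 on the log2 scale, while ERBB3, INSR and FLT1 were higher, INSR by 0.62 and FLT1 by 0.50. TYRO3, FGFR1, PDGFRA, PDGFRB, ERBB2 and IGF1R were not called, at differences between -0.32 and 0.35.

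Among those of the 12 lower genes named for size that encode secreted proteins were ESM1, MMP1, DKK1, IL11 and VEGFC. They were grouped here after their values were seen. ESM1, a secreted proteoglycan gene (chr5:54273695-54318499, minus strand), measured 17.1, 22.2, 18.9 and 11 FPKM in J tumors and 1.74, 1.29, 2.11 and 3.25 FPKM in J+V tumors, an 8.26-fold ratio of means (log2 difference -2.79 ± 0.485 SE, adjusted p = 0.0011). IL11, a cytokine of the interleukin 6 family, fell from 9.43, 12.1, 9 and 10.4 FPKM to 1.54, 1.41, 2.2 and 2.76 FPKM (adjusted p = 7.06e-05). The lymphangiogenic factor VEGFC fell 4.47-fold and the Wnt antagonist DKK1 4.98-fold. MMP1, the interstitial collagenase (chr11:102660132-102668891, minus strand), fell from 24.2, 22.1, 37.6 and 37.1 FPKM to 4, 2.93, 6.01 and 13.4 FPKM. The groups did not overlap in these genes because the naming rule required it.

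The other lower genes named for size were SCG5, MSX1, TGM2, EPHA2 and 3 histone genes. SCG5, a chaperone of a prohormone convertase, fell from 10.1, 11.5, 12 and 12.6 FPKM to 1.15, 1.2, 1.24 and 3.22 FPKM, and the homeobox gene MSX1 from 13.8 ± 2.56 to 2.55 ± 0.51 FPKM. TGM2, tissue transglutaminase, fell 4.92-fold (adjusted p = 0.00589). Across the protease list, 5 of 15 measured genes (33.3%) were lower and 3 (20%) higher, beside 18.8% and 8.98% over all genes. Without mouse 29 the counts were 3 and 1. PLAUR, the urokinase receptor, fell from 19.9 ± 2.33 to 6.22 ± 2.37 FPKM and the protease inhibitor TFPI2 from 57.8 ± 6.81 to 26.3 ± 6.6 FPKM, while MMP16, MMP19 and SERPINE2 rose by 0.69, 0.47 and 0.72 on the log2 scale. Among NF-kB and cytokine genes 5 of 15 (33.3%) were lower and 1 (6.67%) higher, beside the same background, and 2 were lower without mouse 29. The cytokine LIF fell from 5.64 ± 1.37 to 1.75 ± 0.535 FPKM, and IL8 from 17 ± 2.84 to 10.2 ± 5.22 FPKM with overlapping groups (adjusted p = 0.0301, and 0.112 with the mean of each mouse).

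The higher genes named for size included CDH19, given above with S100B and ERBB3. PCSK1, a prohormone convertase, rose from 36.1, 24.5, 16.4 and 19.5 FPKM to 56.7, 85.6, 43.3 and 73.5 FPKM. SLC26A2, a sulfate transporter, rose from 164 ± 38.7 to 434 ± 111 FPKM and SERPINA3, antichymotrypsin, from 47.1 ± 12.6 to 113 ± 25.8 FPKM. FREM2 and VIT, genes of extracellular matrix proteins, rose 2.81-fold and 2.61-fold, the lipid transporter ABCA8 2.62-fold, FAM46A 2.59-fold and LOC727982 2.77-fold. None of these overlapped between groups, as the naming rule required. The lower genes named for size had differences from -2.79 to -1.91, and the higher ones from 1.27 to 1.66.

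Lipid synthesis genes were broadly lower. Of 28 measured genes of sterol and fatty acid synthesis, which SREBP transcription factors control, 20 (71.4%, beside 18.8% over all genes) were lower and 0 higher, with a median of -0.619. INSIG1, a sterol-dependent regulator of SREBP, fell from 15.9 ± 2.68 to 6.39 ± 1.47 FPKM and STARD4, a sterol carrier, from 11.7 ± 1.64 to 5.2 ± 1.19 FPKM. The regulator SREBF2 fell by 0.93 on the log2 scale, the early pathway enzyme HMGCS1 by 0.90, and SCD, ACLY and FASN of fatty acid synthesis by 0.82, 0.60 and 0.56. With the mean of each mouse 19 were lower, and without mouse 33, 29 or 26 the count was 12, 12 or 13.

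Energy and biosynthesis genes differed by less per gene. Of 75 oxidative phosphorylation subunits 35 (46.7%) were lower and 0 higher, beside 18.8% lower over all genes, with a median of -0.319. UQCRC1 of complex III fell from 33.5 ± 4.3 to 20.4 ± 2.31 FPKM, and NDUFA2 and NDUFS7 of complex I fell 1.57-fold and 1.61-fold. The count was 42 after scaling to a common sum, 22 after upper quartile scaling, and 11, 9 and 11 without mouse 26, 29 or 33. Of 7 measured genes of the PGC1 axis, which controls mitochondrial content, none was called by limma in either direction, at a median of -0.217 with differences from -0.32 for NRF1 to 0.28 for GABPA.

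With the same 18.8% as background, of 29 glycolysis and hypoxia genes 11 (37.9%) were lower and 0 higher. Without mouse 26, 29 or 33 the count was 7, 7 or 7, and the glycolytic enzyme genes PFKP, ENO1 and TPI1 fell by 0.86, 0.80 and 0.74 on the log2 scale, with ENO1 at 661 ± 30.4 and 382 ± 52.2 FPKM. Of 25 ribosome biogenesis genes 13 (52%) were lower and 0 higher, with falls of 0.66, 0.61 and 0.56 for LYAR, RRP9 and NOP56, but without mouse 26, 29 or 33 the count was 4, 4 or 6. Of 28 ATF4 targets and tRNA synthetases 15 (53.6%) were lower and 0 higher, and 8 and 7 were lower without mouse 29 or 33. Among them SLC7A5, the large neutral amino acid transporter, fell from 3.44 ± 0.676 to 0.961 ± 0.272 FPKM, the mitochondrial folate enzyme gene MTHFD2 1.71-fold and the tyrosyl-tRNA synthetase gene YARS 1.59-fold.

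Few ribosomal protein genes were called: 4 of 78 (5.13%) were lower and 0 higher, beside 18.8% and 8.98% over all genes. Their median was 0.033, and 0 were lower without mouse 29 and 0 without mouse 33. RPS27L, RPS26 and RPL39L fell by 0.57, 0.48 and 0.39 on the log2 scale, and RPS27L and RPL39L did not pass with the mean of each mouse (adjusted p = 0.05004 and 0.0529). Ribosomal protein genes have many processed copies in the genome, so single values are uncertain. Of 226 small nucleolar RNAs 4 (1.77%) were lower and 3 (1.33%) higher, beside the same background.

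**Figure D3:**
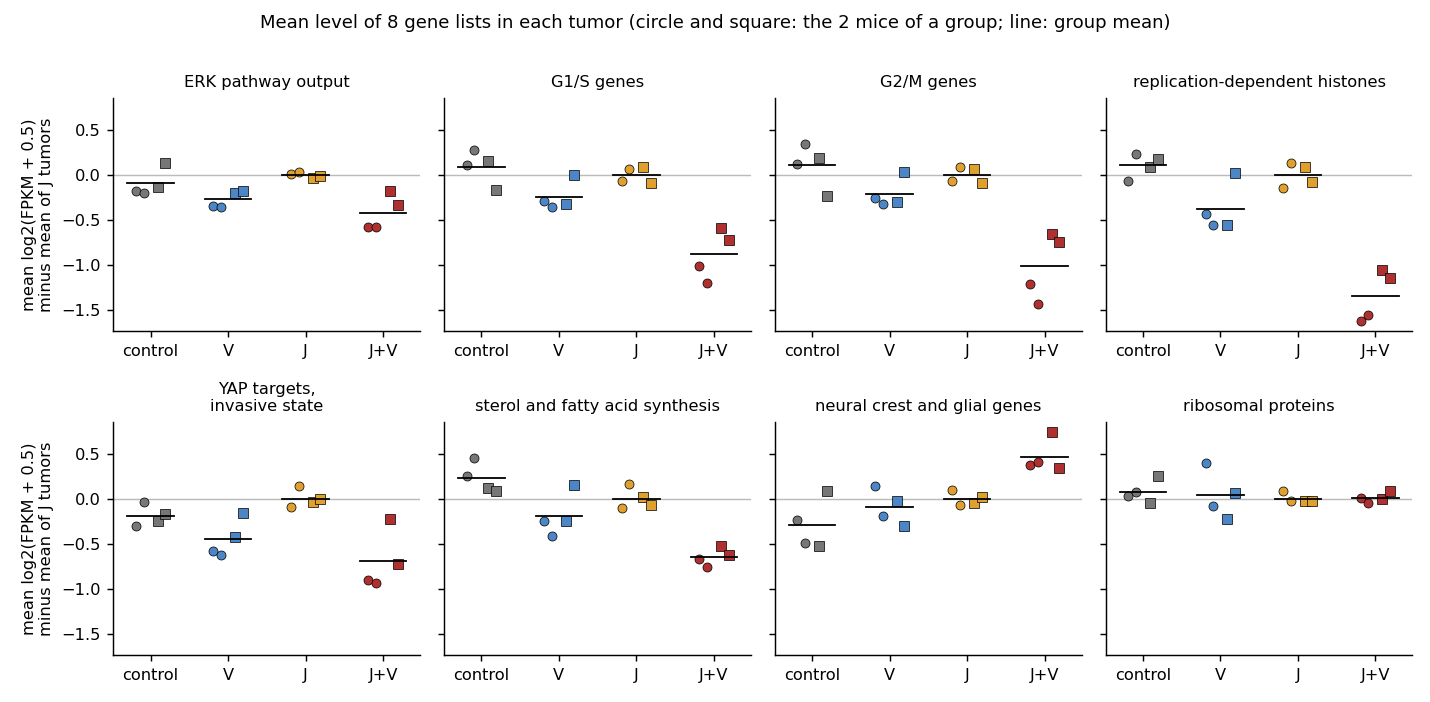
Mean log2(FPKM + 0.5) of 8 gene lists per tumor, as a difference from the J mean; circles and squares are the 2 mice of a group and lines are group means. Histone genes lie between -1.618 and -1.055 in the J+V tumors and between -0.139 and 0.128 in the J tumors, and ribosomal protein genes of the J+V tumors lie between -0.050 and 0.089.

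The 2 J+V mice differed in depth of response. The mean of the G2/M list, relative to the J mean, was -1.318 in mouse 33 and -0.698 in mouse 34, that of the histone list -1.587 and -1.097, and that of ERK pathway output -0.577 and -0.257. The neural crest list had its larger mean in mouse 34, at 0.538, against 0.389 in mouse 33, but this came from 1 tumor. Tumor 34L was at 0.735, whereas 34R at 0.341 lay below 33L and 33R, at 0.370 and 0.409. The J mice lay between -0.022 and 0.022 in these 4 lists. With 2 mice per group the difference between mice was not tested.

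Among 15 measured BCL2 family and IAP genes 6 (40%, beside 18.8% of all genes) were lower and 0 higher, and 2 were lower with the mean of each mouse. Besides BIRC5, the anti-apoptotic BCL2L1 (BCL-XL) fell from 10.1, 14, 12.5 and 12.5 FPKM to 5.49, 7.65, 8.08 and 7.89 FPKM (adjusted p = 0.00374). MCL1 fell from 248 to 175 FPKM and BCL2 from 1.28 to 0.761 FPKM. Pro-apoptotic PMAIP1 (NOXA) and BAX fell as well, by 0.58 and 0.51 on the log2 scale. With the mean of each mouse BIRC5 and BCL2L1 were the 2 lower genes, and MCL1, BCL2, PMAIP1 and BAX were not called. BCL2L11 (BIM), which ERK signalling holds down, was at 6.63 ± 0.583 and 7.43 ± 2.46 FPKM, with 4.1 to 9.53 FPKM in single J+V tumors (interval -0.31 to 0.50). Of 23 p53 targets 5 (21.7%) were lower and 1 (4.35%) higher, so the lower share was near the background, and 2 were lower without mouse 29. The exonuclease gene AEN fell from 10.8 ± 1.08 to 5.12 ± 1.5 FPKM and the DNA repair gene DDB2 1.52-fold, and ZMAT3 rose by 0.32 on the log2 scale. The count of higher p53 targets was 0 with the mean of each mouse, after scaling to a common sum and without mouse 26, 29, 33 or 34.

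Of 27 PI3K and AKT pathway genes 5 (18.5%) were lower, about the 18.8% over all genes, and 6 (22.2%) were higher, beside 8.98%. Without mouse 26 the counts were 2 and 5. FOXO1, a transcription factor that AKT restrains (chr13:41129804-41240778, minus strand), rose from 2.72, 1.78, 1.72 and 1.89 FPKM to 5.83, 5.67, 3.31 and 4.64 FPKM (adjusted p = 0.000828). DEPTOR, an inhibitor of mTOR, rose from 5.52 ± 0.439 to 12.1 ± 1.87 FPKM and TXNIP, an inhibitor of glucose uptake, from 65.9 ± 14.9 to 134 ± 26.2 FPKM. The regulatory subunits PIK3R1 and PIK3R3 rose by 0.61 and 0.78, whereas AKT1, IRS1 and PIK3CD fell by 0.50, 0.72 and 0.71 on the log2 scale.

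Of 12 BET and P-TEFb genes, the group nearest to the target of JQ1, 2 (16.7%) were lower and 0 higher when Vemurafenib was added, near the 18.8% lower over all genes. ELL2, an elongation factor, fell from 7.62 ± 1.24 to 3.29 ± 1.12 FPKM. BRD2 fell by 0.25 on the log2 scale (adjusted p = 0.042, and 0.0855 with the mean of each mouse). HEXIM1 and SERPINI1, commonly used as JQ1 response genes, were at 12.6 and 11.3 FPKM and at 3.54 and 4.13 FPKM, with intervals of -0.39 to 0.077 and -0.22 to 0.56.

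Other lists held few or mixed calls, beside 18.8% lower and 8.98% higher over all genes. Of 18 Wnt pathway genes 4 (22.2%) were lower and 4 (22.2%) higher, with the transcription factor LEF1 rising from 53.5 ± 9.66 to 103 ± 29.4 FPKM and the receptor FZD1 falling from 4.26 to 2.54 FPKM, both with overlapping groups. Of 19 TGF-beta, BMP and ID genes 3 (15.8%) were lower and 1 (5.26%) higher, with TGFB1 and SMAD3 falling by 0.60 and 0.53 on the log2 scale and overlapping between groups. Of 16 MHC class I genes 2 (12.5%) were lower and 1 (6.25%) higher: TAP2 and CALR were lower, by 0.41 and 0.37, and ERAP1 was higher by 0.28. Of 29 lysosome and autophagy genes 3 (10.3%) were lower and 3 (10.3%) higher, the lower ones being CLN3, CTSL1 and GLA, by 0.46, 0.44 and 0.43. Of 36 interferon response genes 1 (2.78%) was lower and 1 higher: OASL fell from 3.29 ± 0.635 to 1.07 ± 0.197 FPKM, IFIT2 rose from 4.09 to 6.69 FPKM, and the other 34 were not called. Without mouse 29 the lower genes numbered 2 in the Wnt, 0 in the TGF-beta, 1 in the MHC, 0 in the lysosome and 0 in the interferon list. The higher genes then numbered 1 in the Wnt list and 0 in each of the other lists. LEF1 was not called without mouse 29 or without mouse 33, and ERAP1 lost its call in 4 of 39 settings. With the mean of each mouse CLN3, IFIT2, FZD1, SMAD3 and TAP2 were not called. Their calls were lost in 22 of 38, 13 of 39, 12 of 38, 10 of 39 and 4 of 39 settings.

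The same drug step without JQ1 is the comparison of V with control tumors. By limma, 0 of the 12978 genes (0%) passed an adjusted p below 0.05 between V and control tumors, with 2119 at an unadjusted p below 0.05 (evenly spread p-values would put 648.9 there) and 1 gene called with the mean of each mouse, but 437 genes were called without control replicate 4 and 180 without V replicate 4. Most signs were shared over all genes (73.9%) and among genes that were not called (66.9%), and 48.9% of all genes were lower in V than in control. Of the called genes, 2237 (91.8%) of the 2437 that fell in J+V were also lower in V than in control, at medians of -0.504 with JQ1 and -0.190 without it, and 1082 (92.8%) of the 1166 genes that rose were also higher, at medians of 0.472 and 0.208. Across all 12978 genes, which are not independent, the differences correlated with Pearson r = 0.371 and Spearman rho = 0.642, and the 2 comparisons have no tumor in common. The genes were called on the JQ1 side, so the larger median on that side is a description and not a test, and genes that were not called had medians of -0.015 with JQ1 and 0.028 without it.

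The test of the difference itself, the Vemurafenib effect with JQ1 minus that without it, called 0 of the 12978 genes (0%) by limma. The smallest adjusted p was 0.0913, 1666 genes were at an unadjusted p below 0.05 (beside the same 648.9), and 1258 of these were below 0 and 408 above. The mean of each mouse called 2 genes, the small nucleolar RNAs SNORD67 and SNORD69, and leaving out single tumors or mice gave between 0 and 374 genes, the most without mouse 34. IL11 had the smallest adjusted p, at -2.14 with JQ1 and -0.39 without it (difference -1.75 ± 0.274 SE, adjusted p = 0.0913). SCG5 fell by 2.54 with JQ1 and differed by -0.26 without it (adjusted p of the difference 0.0939), and PLK1 had differences of -1.81 and -0.40 (0.0939). Among the higher genes, ERBB3 differed by 1.34 with JQ1 and by 0.21 without it (0.0939). OASL had differences of -1.26 with JQ1 and 0.42 without it (0.0987), and TFPI2 of -1.15 and 0.022 (0.134).

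By list, medians with and without JQ1 were -1.458 and -0.563 for histones, -1.037 and -0.317 for G2/M, -0.905 and -0.336 for G1/S, -0.619 and -0.415 for sterol and fatty acid synthesis and 0.605 and 0.229 for neural crest genes. INSIG1 and STARD4 had differences of -0.83 and -0.70 in V against control, neither called. Interferon genes had medians of 0.118 with JQ1 and 0.668 without it, and their mean level relative to the J tumors lay between 0.603 and 1.566 in V tumors, between 0.038 and 0.918 in control tumors and between -0.258 and 0.218 in J+V tumors. These list medians were not tested against each other.

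**Figure D4:**
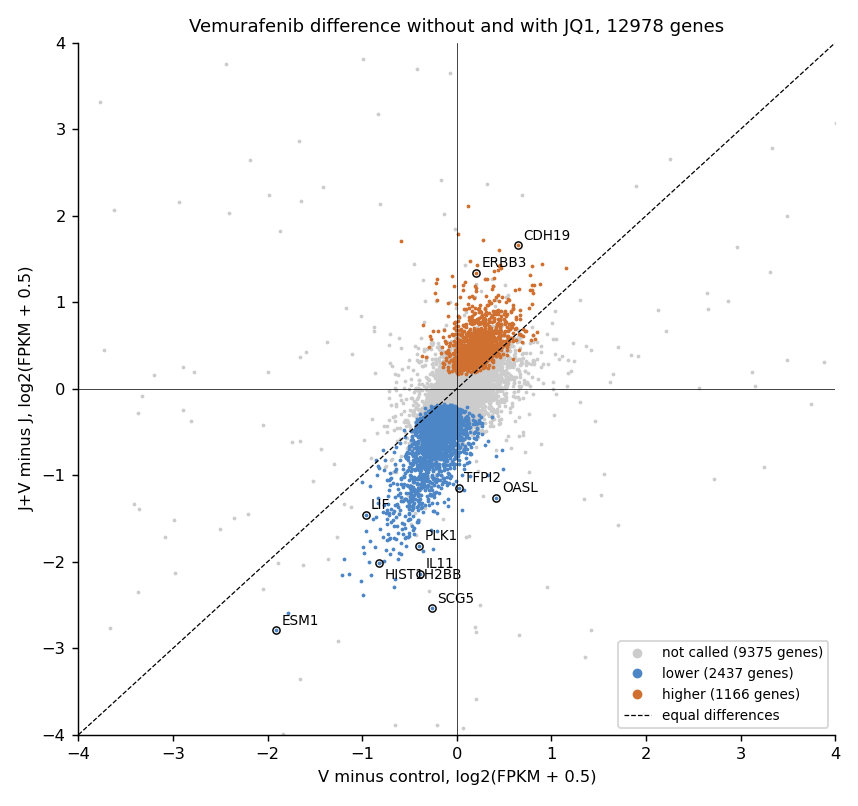
Log2 difference of FPKM + 0.5 for V minus control (horizontal axis) and J+V minus J (vertical axis), 1 point a gene, with 29 genes outside the axes. The 2437 lower genes lie mostly below the dashed line of equal differences and the 1166 higher genes mostly above it, and ESM1 is low on both axes at -1.91 and -2.79.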

How the data were processed

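RNA from 16 A375 xenograft tumors was sequenced as total RNA libraries depleted of ribosomal RNA. The authors deposited 1 table of FPKM values per gene symbol and tumor, made with bcl2fastq, TopHat and Cufflinks on hg19 (the sources used here give no versions, annotation or treatment of mouse reads). FPKM are normalized values and not counts, the depth of each tumor is unknown, and no counting interval can be given. The study tested counts with another tool, which was not repeated.

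Genes with at least 1 FPKM in at least 4 of the 8 J and J+V tumors were kept. limma 3.58.1 in R 4.3.3 was fitted to log2(FPKM + 0.5) of all 16 tumors with 4 group means, a mean-variance trend and mouse as a block, and p-values were adjusted by the Benjamini-Hochberg method over 12978 genes. The stricter alternative used the mean of each mouse. Composition was compared with two-sided exact permutation tests over 70 splits. Intervals are 95% intervals of the log2 difference. The fit was tested on simulated data. Figures were drawn with matplotlib 3.10.9.

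The genes and gene lists were chosen with earlier results of these data known. Named genes were the 12 lower and 12 higher genes with the largest difference (called in both fits, mean of at least 5 FPKM, groups not overlapping, no short RNAs), the 3 largest called members of each list, a fixed set of ERK, BET, lineage and cell cycle genes, and the largest called differences between the Vemurafenib effects, of which there were none. Other list members and the gene families were named after their values were seen. A few named genes are not reported here but stay in the counts and medians of their lists. Positions are GRCh37 from GENCODE, where 96 of the 104 named genes were matched. Promoter sequences are from RefSeq (GRCh38.p14), and those shown are of the first 2 called genes by size for each element whose stretch touches no exon. Alternatives were the pseudocount, the filter, 4 scalings, the mouse block, flank as a term, fewer groups in the fit, robust moderation, no trend, and leaving out each tumor or mouse; leaving out control and V tumors or mice from the J+V against J result was added after seeing the data.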

Additional observations from a re-analysis of the deposited data

Results flagged for a closer look

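In 10 of 276 groups of 4 values tested, 1 tumor stood apart from the other 3 by Dixon's criterion at the 95% level, where chance would give about 14. Tumors 34L and 34R held 3 such values each. Among J+V tumors, SCG5 was at 3.22 FPKM in tumor 34R against 1.15 to 1.24 FPKM in the others, and BRD2 at 28.2 FPKM in 34R against 33.4 to 34.2 FPKM. Tumor 34L was high in AXL (10.2 against 4.98 to 5.85 FPKM), EGFR (4.12 against 1.45 to 1.68 FPKM) and FZD1 (3.69 against 2.08 to 2.26 FPKM). BCL2L1 was at 5.49 FPKM in tumor 33L against 7.65 to 8.08 FPKM. The upper quartile of FPKM was 25.83 in tumor 34R against 24.65 to 24.83. Among J tumors, RPS26 was at 399 FPKM in tumor 26L against 462 to 472 FPKM, and the mean of the ribosomal protein list was 0.083 in 26L against -0.030 to -0.026 on the log2 scale. SPRY4 was at 25.9 FPKM in tumor 29L against 31.9 to 32.2 FPKM. No cause was tested.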

How the results depend on the processing

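The mean of each mouse gave 1623 lower and 732 higher genes, 2 differences between the Vemurafenib effects and 1 gene in V against control. Higher genes numbered 490 after scaling to a common sum, 1751 after upper quartile scaling and 2003 after quantile normalization. Without mouse 26, 29 or 33 there were 1204, 879 and 1106 lower and 395, 304 and 362 higher genes. Leaving out 1 tumor gave 1546 (without control replicate 3) to 2884 lower genes and 613 (without control replicate 3) to 1516 higher genes (both highest without control replicate 4), with 685 and 769 higher without J replicate 2 or 3. Differences between the Vemurafenib effects then numbered 0 to 129 (most without J+V replicate 3, with 8 without J+V replicate 4 and 18 without control replicate 4) and V against control 0 to 437 genes (180 without V replicate 4, 437 without control replicate 4). Without mouse 16, 19, 33, 34 or 5 the differences numbered 27, 1, 3, 374 and 27, and without mouse 19, 2 or 5 V against control gave 1, 2 and 195 genes. At the thresholds of the study, applied to this fit, 353 genes were called instead of 3603. Of the 90 named genes that were called, 58 kept the call in all 39 settings, 32 lost it in at least 1 (25 without mouse 29, 23 without mouse 33, 13 with the mean of each mouse) and 0 changed sign. The causes were not tested.

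Signs turned only among named genes that were not called. DUSP6 was 0.042 after quantile normalization and 0.072 without mouse 33, and SPRY2 -0.088 without mouse 34. ETV5 was -0.041 with a common sum and ran from -0.018 to 0.075 without 1 tumor. MYC was -0.051 with a common sum, -0.004 without mouse 29, -0.012 without mouse 33 and -0.028 to 0.047 without 1 tumor. EGR1 was 0.016 with upper quartile scaling, 0.038 after quantile normalization, 0.064 without mouse 26, 0.206 without mouse 33 and -0.230 to 0.082 without 1 tumor. MITF was -0.004 with a common sum, -0.030 without mouse 34 and -0.059 to 0.117 without 1 tumor, and BCL2L11 -0.066 without mouse 33 and -0.018 to 0.331 without 1 tumor. No paired analysis was possible because replicate numbers only name tumors here. Depth is unknown, so its effect on low genes could not be measured.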

Other observations

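Several gene families outside the lists above were picked after their values were seen and are given as values only, beside 18.8% lower and 8.98% higher over all genes. Of 37 proteasome subunit genes 24 (64.9%) were lower and 0 higher in J+V than in J tumors, with PSMB2 at 12 ± 1.26 and 6.62 ± 1.37 FPKM (SD, n = 4 each, log2 difference -0.82) and PSMA7 at 201 ± 10.1 and 121 ± 17.9 FPKM. All 8 subunits of the chaperonin CCT, which folds actin and tubulin, were lower, with TCP1 at 180 ± 8.23 and 121 ± 16.4 FPKM. Of 18 nucleoporins 12 (66.7%) were lower, led by NUP205 (-0.67), and of 76 mitochondrial ribosomal proteins 41 (53.9%) were lower and 1 higher. Without mouse 33 these counts were 9 proteasome, 3 CCT, 3 nucleoporin and 14 mitochondrial ribosomal genes.

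Of 9 minichromosome maintenance genes, several of which encode subunits of the replicative helicase, 8 were lower, and the count was also 8 without mouse 33. Of 452 zinc finger (ZNF) genes 94 (20.8%) were higher and 17 lower, beside 8.98% higher over all genes. The ZNF count depended on scaling, with 37 higher after scaling to a common sum and 159 after quantile normalization. Of 14 phosphodiesterases 5 (35.7%, beside the same 8.98%) were higher, with 2 after scaling to a common sum, 3 with the mean of each mouse and 3 without mouse 33. They were led by PDE3A, which rose from 3.48 ± 1.03 to 8.2 ± 1.24 FPKM. Of 11 RGS genes, which encode regulators of G protein signalling, 5 (45.5%) were lower, and 0 were lower without mouse 33.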
